A study of Mus musculus with 20 samples.

Results

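The Bcl2 family of survival genes was followed through the mouse cells of this single-cell RNA-sequencing (scRNA-seq) study. Its members here are a named list of 10 of the 31053 genes in each matrix, and all 10 had counts. The list holds Bcl2, Mcl1, Bcl2l1, Bcl2a1b and Bcl2a1d, whose products protect cells from death, Bcl2l11 (BIM), Bbc3 (PUMA), Pmaip1 (NOXA) and Bax, whose products promote it, and Bcl2l14, a less studied relative. Cells came unsorted from 13 mice and gave 20 libraries. Eµ-PRMT5 mice carry human PRMT5, an arginine methyltransferase, and were measured in 5 spleens. Eµ-TCL1 mice carry human TCL1, an oncogene that gives a disease like chronic lymphocytic leukemia (CLL), and were measured in 4 spleens and 3 lymph nodes. Eµ-PRMT5/TCL1 mice carry both transgenes and were measured in 4 spleens and 4 lymph nodes, and all 7 nodes came from mice whose spleen was measured too. Both human sequences are driven by an immunoglobulin heavy chain promoter and enhancer that act in B cells, and the matrices list mouse genes only. The labels give the strain as C57BL/6N and no age or treatment, the study took tissue from diseased animals, and no library of a mouse without a transgene was analysed here. Libraries carry the name of their group and the replicate number of their label, and each group member is a separate mouse, so that p-values measure the spread between mice. By the titles, Eµ-PRMT5 spleen 3 has the number that the study's methods give to a founder mouse. The title of the mouse behind Eµ-PRMT5/TCL1 node 2 and spleen 1 carries the suffix RT.

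Proteins of this family decide at the mitochondrion whether a cell survives. BCL2, MCL1, BCL-XL (the product of Bcl2l1) and A1 (Bcl2a1) hold back the pore former BAX and its relative BAK, while the BH3-only proteins BIM, PUMA and NOXA bind these guardians or BAX itself and so open the way to cytochrome c release, APAF1 and the caspases. NOXA binds chiefly MCL1 and A1. CLL cells are known for high BCL2, the target of venetoclax, and MCL1 is a short-lived protein that plasma cells and many lymphomas depend on.

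Levels are given as CPM, the unique molecular identifiers (UMIs, a tag for each captured RNA molecule) of a gene relative to those of all genes, summed over the cells of a class in a library. CPM values compare a gene between samples and are not an order between genes. Libraries held 9348094 to 72440894 UMIs, and 689 to 7823 cells each were kept. Cell classes were set by gates on a few marker genes. A B cell had at least 3 UMIs of Cd79a and Cd79b, none of Cd3d, Cd3e or Cd3g, and fewer than 20 of Jchain, which gave 196 to 5333 B cells per library. The Cd3g condition alone left out very uneven numbers of cells, 4 to 1606 per library. It left out 1606 of 2429 cells in Eµ-PRMT5 spleen 4, 1518 of 3118 in Eµ-PRMT5/TCL1 node 4 and 1041 of 3433 in Eµ-TCL1 spleen 4. A gate that allows Cd3g was among the alternatives. The 7 other B markers looked up, among them Ms4a1, Cd22, Pax5, Ebf1, Ighm and Cd74, were present in the B cells of all 20 libraries, with a summed level of 5692 to 30257 CPM. The lowest sum was that of Eµ-PRMT5 spleen 4, whose B cells had 64.1 CPM of Ms4a1 against at least 305 CPM in the others, a median of 16741 UMIs per cell, and 590 of 823 cells in the cycling gate. Values without this library are given for some genes in the genotype comparisons of spleen B cells and in cycling B cells. Other genes, and the comparisons of T, myeloid and stress B cells, are given with it. T cells of Eµ-PRMT5 spleen 5 stood apart too: 4803 of its 5786 cells were T cells, with 1.09 CPM of Trbc1 and 168 CPM of Trbc2, while its other classes were small (449 B and 37 myeloid cells). Any 2 libraries shared 0 to 71 cell barcodes, at most 1.31% of the smaller library, where random draws from all possible barcodes would share 0.875 to 68.6.

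Bcl2 was read in every B cell sum. In Eµ-TCL1 spleens its levels were 117, 138, 102 and 154 CPM, and in Eµ-PRMT5/TCL1 spleens 145, 82.4, 83.9 and 123 CPM. In Eµ-PRMT5 spleens they were 39.0, 92.7, 84.5, 29.1 and 92.0 CPM. All 5 Eµ-PRMT5 spleens lay below the lowest Eµ-TCL1 spleen, while Eµ-PRMT5/TCL1 spleens overlapped with both groups. In lymph nodes Bcl2 was at 150, 121 and 79.0 CPM (Eµ-TCL1) and at 159.997, 112, 58.4 and 118 CPM (Eµ-PRMT5/TCL1), with full overlap. Ordered by mean, Bcl2 in B cells was 128 ± 23.2 CPM in Eµ-TCL1 spleens (SD, n = 4), 117 ± 35.6 in Eµ-TCL1 nodes (n = 3), 112 ± 41.7 in Eµ-PRMT5/TCL1 nodes (n = 4), 108 ± 30.6 in Eµ-PRMT5/TCL1 spleens (n = 4) and 67.5 ± 30.9 in Eµ-PRMT5 spleens (n = 5). No neighbors in this order were further apart than the sum of their SDs, and the ranges of each pair of neighbors overlapped.

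Mcl1 overlapped between all 5 groups. Its group means in B cells lay between 231 CPM (Eµ-PRMT5/TCL1 nodes) and 272 CPM (Eµ-TCL1 nodes), with single libraries from 144 CPM (Eµ-PRMT5 spleen 4) to 381 CPM (Eµ-PRMT5/TCL1 spleen 4). Bcl2l1 was sparse, at 1.87 to 12.95 CPM over the 20 B cell sums, with a median of 5.19 CPM.

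The A1 genes Bcl2a1b and Bcl2a1d are close copies on chromosome 9. In the mouse genome build GRCm38 (GENCODE vM21) Bcl2a1b spans 89199209 to 89207827 on the plus strand and Bcl2a1d 88723285 to 88731914 on the minus strand. Of the 411 stretches of 90 bases in the last 500 bases of their transcripts, which 3′ libraries read, 39.4% of those of Bcl2a1b and 65.2% of those of Bcl2a1d also occur in another A1 copy, so that reads can be lost or shared between them and each gene's own level is uncertain. The study states shorter reads than 90 bases for its mouse single-cell libraries, for which the shared parts can be larger. The copies Bcl2a1a and Bcl2a1c had at most 21 and 0 UMIs in the B cells of any library. The sequences around the 2 starts are shown because the copies resemble each other there too. RefSeq places each start inside the span above, so that the last 64 bases of each window lie within the GENCODE gene. In RefSeq sequence of GRCm38.p6 (the 250 bases before the transcript start, 5′ to 3′, with the only 8 letters that match the PU.1 box GAGGAAGT in capitals) they read as follows.
Bcl2a1b, chr9:89199023-89199272, plus strand: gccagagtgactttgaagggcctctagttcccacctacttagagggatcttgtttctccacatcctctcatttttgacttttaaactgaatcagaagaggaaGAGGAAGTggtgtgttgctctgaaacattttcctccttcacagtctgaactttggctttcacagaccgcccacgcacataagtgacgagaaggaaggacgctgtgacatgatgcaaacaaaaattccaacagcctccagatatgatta
Bcl2a1d, chr9:88731851-88732100, minus strand: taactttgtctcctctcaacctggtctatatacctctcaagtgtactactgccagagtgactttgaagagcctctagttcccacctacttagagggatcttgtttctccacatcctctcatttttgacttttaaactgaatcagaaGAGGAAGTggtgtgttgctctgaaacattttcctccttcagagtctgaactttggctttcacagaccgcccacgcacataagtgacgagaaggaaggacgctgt
Over 206 aligned positions, 198 bases are identical (96.1%) and 6 are gaps. PU.1 is a transcription factor of B and myeloid cells. On either strand its box GAGGAAGT lies in 2.44% of 32851 RefSeq promoter windows and, of the 15 windows of the 10 genes, in those of Bcl2a1b and Bcl2a1d, 148 and 104 bases before the start. Of 3 other motifs searched on both strands, a cyclic AMP response element (TGACGT, in 6.47% of windows) was found for Bcl2, 107 bases before the start. The FOXO motif TGTTTAC (3.17%) was found for Bbc3 and, on the opposite strand, for Bcl2l11, and the E-box CACGTG (6.02%) for Bax and Bbc3. A match of letters is a description and not a binding site.

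Levels of the 2 A1 copies went side by side. In B cells Bcl2a1b was at 358, 123, 279, 58.8 and 92.6 CPM in Eµ-PRMT5 spleens, at 86.7, 90.01, 109 and 80.0 CPM in Eµ-TCL1 spleens and at 67.9, 161, 108 and 89.8 CPM in Eµ-PRMT5/TCL1 spleens. Eµ-PRMT5 spleens 1 and 3 were thus the highest of the 20 sums, and the other 3 lay within or near the range of the Eµ-TCL1 spleens. Bcl2a1d had the same 2 libraries on top, at 191 and 145 CPM against 22.3 to 108 CPM in the other 18 sums. The ratio of Bcl2a1b to Bcl2a1d was 1.62 to 3.47 over the B cells of 20 libraries (median 2.23) and 1.49 to 7.75 over their T cells (median 2.68).

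Among the death-promoting genes, Bax was at 167 to 324 CPM over the B cell sums. Bcl2l11 was highest in Eµ-PRMT5 spleens, at 116, 85.9, 65.1, 184 and 29.5 CPM against 34.1, 63.0, 28.6 and 35.5 CPM in Eµ-TCL1 spleens and 21.5 to 52.2 CPM in Eµ-PRMT5/TCL1 spleens. Eµ-PRMT5 spleens 1 to 4 exceeded every Eµ-TCL1 spleen and spleen 5 did not. Pmaip1 showed the same 4 libraries on top: it was at 68.4, 62.7, 42.6, 49.5 and 8.10 CPM in Eµ-PRMT5 spleens, 14.2, 15.7, 6.09 and 8.89 CPM in Eµ-TCL1 spleens and 8.39, 19.02, 9.77 and 38.2 CPM in Eµ-PRMT5/TCL1 spleens. Bbc3 lay between 37.6 and 119 CPM in 19 of the 20 sums and at 218 CPM in Eµ-PRMT5 spleen 2.

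**Figure D1:**
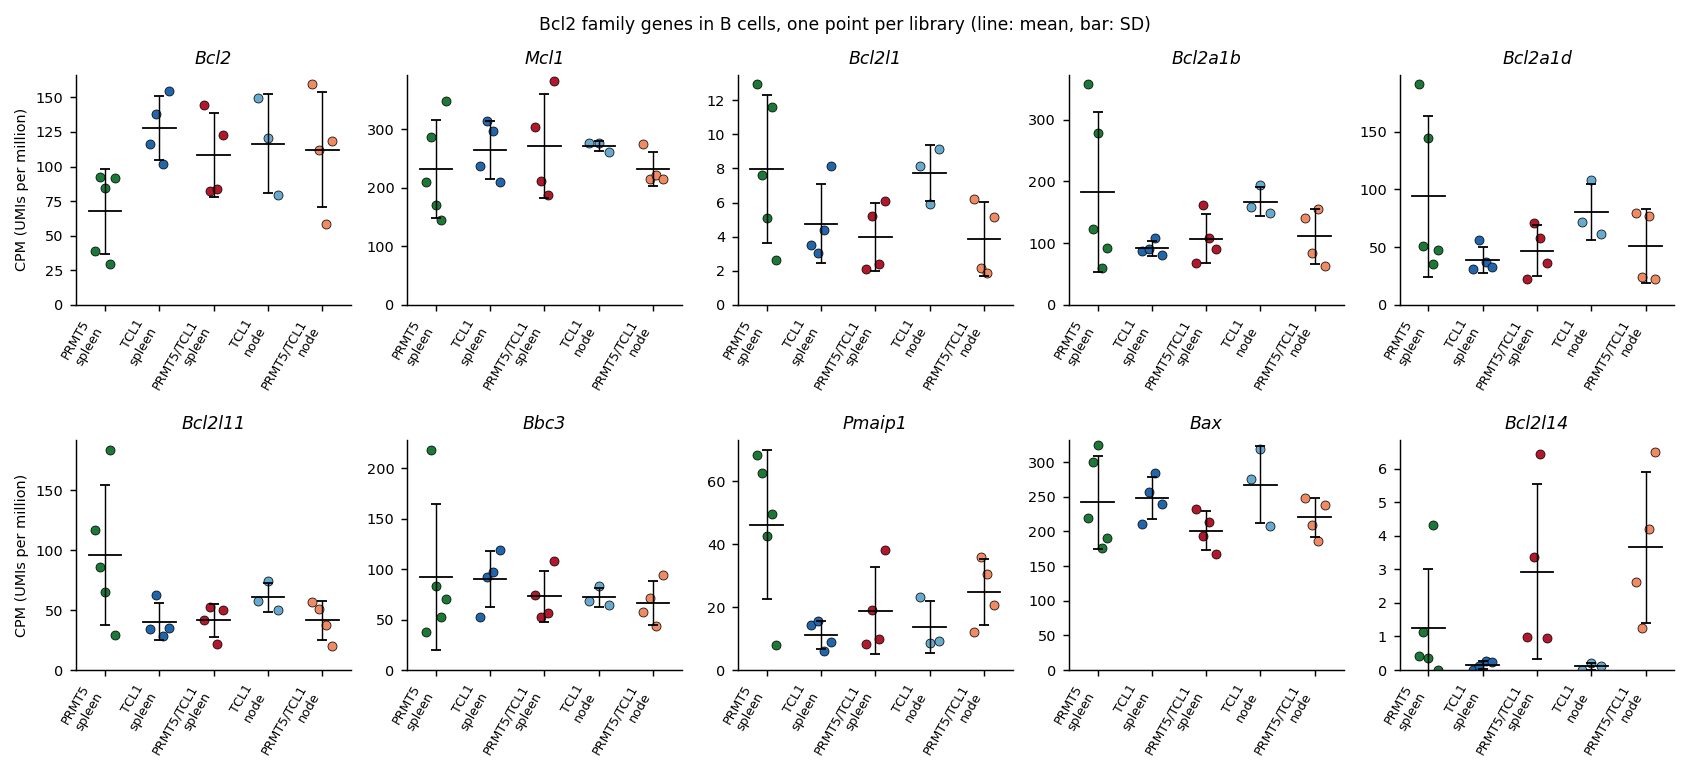
Levels of the 10 Bcl2 family genes in gated B cells, in CPM on a linear axis from 0, 1 panel per gene. Points are libraries by group (3 to 5 per group), lines are group means and bars are SD. Bcl2 of all Eµ-PRMT5 spleens lies below the Eµ-TCL1 spleens, Pmaip1 of 4 of 5 Eµ-PRMT5 spleens above them, and Bcl2l14 is plotted at 0 to 0.257 CPM in Eµ-TCL1 B cells of both tissues.

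The first comparison asked how B cells of Eµ-PRMT5 spleens differ from those of Eµ-TCL1 spleens. None of the 10 genes passed the test, edgeR's quasi-likelihood test with Benjamini-Hochberg (BH) adjustment at 0.05, which called 0.0259% of 11590 genes. Before adjustment 5 of 10 were below 0.05, against 16.9% of all genes. Among these was Bcl2l14, which passed the filter on low counts only through the groups where it was high and rested on Eµ-PRMT5 spleen 4, so that this count is no support. DESeq2, run as an alternative, called 2 of 10 against 5.74% of all genes. The 2 were Bcl2, with a log2 difference (Eµ-PRMT5 minus Eµ-TCL1) of −1.04 ± 0.30 (SE; edgeR adjusted p = 0.132), and Pmaip1, at 1.97 ± 0.54 (edgeR adjusted p = 0.129). DESeq2's adjusted p was 0.0225 for Bcl2 and 0.00950 for Pmaip1. Over 24 alternatives the adjusted p ranged from 0.0225 to 0.344 for Bcl2 and from 0.00950 to 0.345 for Pmaip1, and neither changed sign. Without Eµ-PRMT5 spleen 4 Bcl2 was at −0.89 (edgeR adjusted p = 0.0800) and Pmaip1 at 1.82 (0.0822). Without Eµ-PRMT5 spleen 5, the library low in Pmaip1, edgeR called Pmaip1 at 2.23 (adjusted p = 0.0450). That library goes against the difference itself, so that the call without it is no support. No other library left out gave a call.

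The remaining genes of that comparison had larger errors or smaller differences. Bcl2l11 differed by 1.27 ± 0.49 (edgeR adjusted p = 0.215) and by 0.70 without Eµ-PRMT5 spleen 4. Bcl2a1d differed by 1.12 ± 0.48 (0.263) and Bcl2a1b by 0.84 ± 0.43 (0.341), with Eµ-PRMT5 spleens 1 and 3 the highest for both copies. Differences of Mcl1 (−0.28 ± 0.27), Bax (−0.14 ± 0.21), Bbc3 (−0.09 ± 0.40) and Bcl2l1 (0.73 ± 0.50) were less than 2 SEs from 0, and total-count scaling turned that of Bbc3 to 0.03. In all, 6 of 10 genes were positive with a median of 0.78, where the median of all genes tested was 0.01. Non-overlapping ranges between the 2 groups were seen for Bcl2 only, 1 of 10 genes, against 4.94% of all genes.

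Other measures differed between these groups of spleens too. All 10 immediate early genes looked up (Fos, Fosb, Jun, Junb, Egr1, Atf3, Nr4a1, Ier2, Dusp1 and Zfp36, which respond to stimulation and to tissue handling) had a positive difference in the B cells of Eµ-PRMT5 spleens, with a median of 1.31 and 0 called by edgeR. Fos was at 1133, 104, 188, 91.3 and 974 CPM in Eµ-PRMT5 and at 59.0, 149.6, 22.3 and 97.4 CPM in Eµ-TCL1 spleens. Jun was at 324, 267, 199, 121 and 291 CPM in Eµ-PRMT5 and at 134, 116, 65.7 and 65.8 CPM in Eµ-TCL1 spleens. The part of the immediate early genes in the result was not tested. In B cells outside a stress gate, those with fewer than 3 UMIs of Atf3 and Plk2, Pmaip1 was at 37.6 ± 19.1 CPM in Eµ-PRMT5 spleens (SD, n = 5) and at 8.44 ± 2.85 CPM in Eµ-TCL1 spleens (n = 4). These levels are a description and were not tested. Of the rest of the death pathway, edgeR called 0 of 11 other Bcl2 family genes (median −0.25), 0 of 15 caspase and apoptosome genes (−0.21), 0 of 9 inhibitor of apoptosis genes (0.20) and 0 of 11 regulators of the family (0.29).

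**Figure D2:**
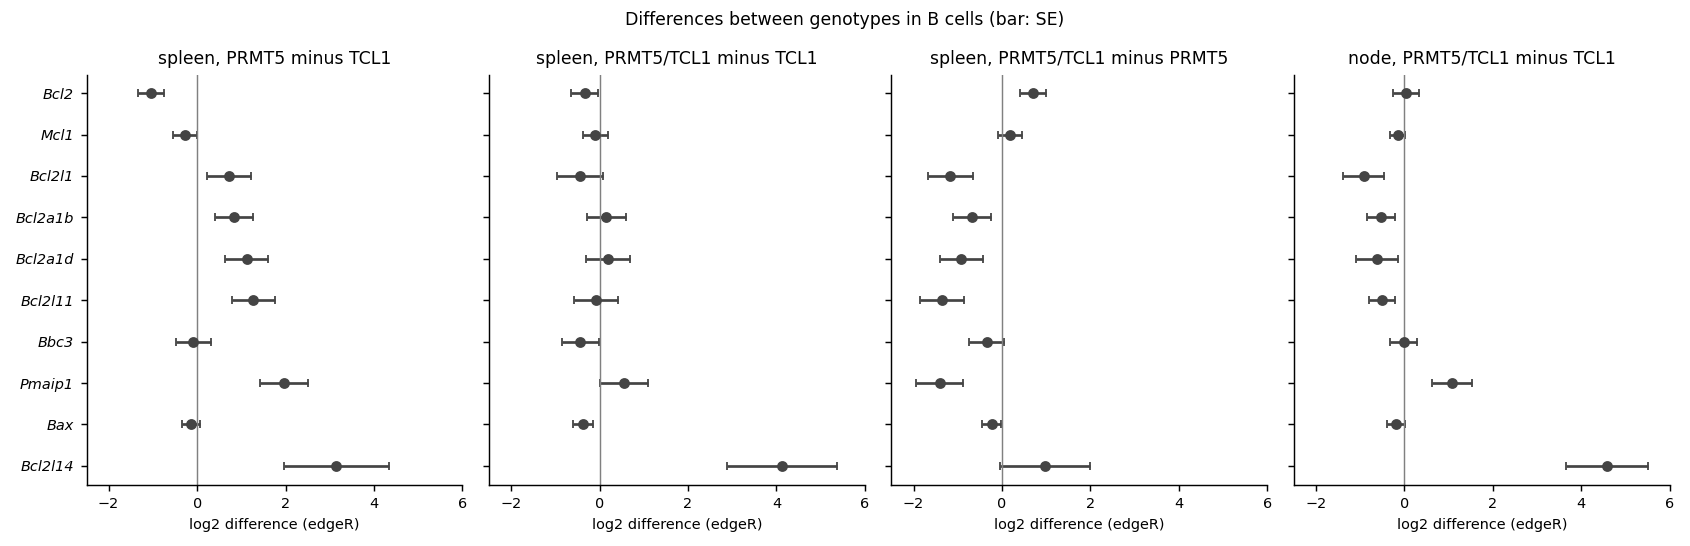
Log2 differences of the 10 genes in B cells with their standard errors (edgeR), 1 panel per comparison of genotypes in spleen and lymph node. Points are fitted differences, bars are SE taken back from the F statistic of the test, and the line at 0 is no difference. The largest values are those of Bcl2l14, at 4.12 in spleen and 4.58 in node for Eµ-PRMT5/TCL1 minus Eµ-TCL1, with the widest bars.

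Adding PRMT5 to TCL1 was tested in spleen and in lymph node. In spleen B cells edgeR called 0 of 10 genes against 0.00863% of all genes. DESeq2 called 0 of 10 against 0.182%. Below 0.05 before adjustment was 1 of 10, against 4.56% of all genes, namely Bcl2l14, at 4.12 ± 1.24 log2 units (edgeR adjusted p = 0.999, from 0.134 to 1.00 over 23 alternatives). The other 9 lay between −0.44 (Bcl2l1) and 0.56 (Pmaip1), with Bcl2 at −0.34 ± 0.31 and Mcl1 at −0.10 ± 0.28. Of the 10 genes 4 were positive, with a median of −0.09 beside 0.00 over all genes, a median that total-count scaling moved to 0.11. Under that scaling 6 of 10 were positive, with Mcl1 at 0.04. Counted levels did not overlap for Bcl2l14, 1 of 10 genes, against 3.27% of all genes. No Eµ-TCL1 spleen held more than 5 Bcl2l14 UMIs, so that the gene passed the filter on low counts through the other groups and its test is no independent support.

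Against Eµ-PRMT5 spleens, which share these Eµ-PRMT5/TCL1 libraries, edgeR called 0 of 10 genes against 0.00% of all genes and DESeq2 0 of 10 against 0.911%. Before adjustment 4 of 10 were below 0.05, against 8.78% of all genes, namely Bcl2 (0.70 ± 0.30, edgeR adjusted p = 0.537), Bcl2l1 (−1.17 ± 0.51), Bcl2l11 (−1.36 ± 0.49) and Pmaip1 (−1.41 ± 0.53). Without Eµ-PRMT5 spleen 4 they were at 0.55, −0.84, −0.78 and −1.26, and none was called (edgeR adjusted p 0.313, 0.397, 0.295 and 0.267). The other 6 lay between −0.92 (Bcl2a1d) and 0.97 (Bcl2l14). The median of the 10 was −0.51 beside −0.04 over all genes, and no gene had ranges that did not overlap, against 1.81% of all genes. In spleen B cells of both comparisons edgeR called 0 genes of the 4 pathway lists. Immediate early genes were positive in 10 of 10 for Eµ-PRMT5/TCL1 minus Eµ-TCL1 (median 0.57) and in 0 of 10 for Eµ-PRMT5/TCL1 minus Eµ-PRMT5 (median −0.84), with 0 called, and their part was not tested.

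In lymph node B cells edgeR called 0 of 10 genes against 0.00% of all genes. DESeq2 called 1 of 10, Bcl2l14, against 0.573%. That gene, with at most 2 UMIs in any Eµ-TCL1 node, passed the filter on low counts only through the group where it was high, so that its call is given as a description. By edgeR 2 of 10 were below 0.05 before adjustment, against 6.80% of all genes. Pmaip1 was at 12.0, 36.0, 30.4 and 20.7 CPM in Eµ-PRMT5/TCL1 nodes and 23.1, 8.69 and 9.29 CPM in Eµ-TCL1 nodes, a difference of 1.08 ± 0.46 (edgeR adjusted p = 0.733), and the groups overlapped. Bcl2 differed by 0.04 ± 0.30 (−0.04 with total-count scaling) and Mcl1 by −0.16 ± 0.17. Of the 10 genes 3 were positive, with a median of −0.17 beside 0.02 over all genes. The remaining 6 genes lay between −0.93 (Bcl2l1) and −0.02 (Bbc3). By counted UMIs Bcl2l14 was the 1 gene of 10 whose groups did not overlap, against 6.27% of all genes, but the 0 UMIs of 1 Eµ-TCL1 node leave that separation within counting error. Immediate early genes were positive in 8 of 10 (median 0.47, 0 called), and their part was not tested.

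Bcl2l14 gave 0 to 5 UMIs in each Eµ-TCL1 B cell sum and 9 to 97 in each Eµ-PRMT5/TCL1 sum. In Eµ-PRMT5/TCL1 nodes 14, 20, 9 and 53 UMIs were counted (2.63, 1.26, 4.21 and 6.51 CPM), and in Eµ-TCL1 nodes 0, 2 and 2 UMIs, with 0.215 and 0.118 CPM in the last pair. The 0 UMIs of Eµ-TCL1 node 1, the smallest sum, allow up to 2.03 CPM (3 UMIs, counting error only), which is above the 1.26 CPM of Eµ-PRMT5/TCL1 node 2. In spleens Eµ-PRMT5/TCL1 mice had 33, 9, 97 and 15 UMIs (0.986, 3.36, 6.45 and 0.943 CPM), and Eµ-TCL1 mice 0, 4, 3 and 5 UMIs, with 0.114, 0.257 and 0.233 CPM in the last 3 and up to 0.422 CPM in the first.

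Summed over libraries, Bcl2l14 gave 96 UMIs in 5177 Eµ-PRMT5/TCL1 node B cells against 4 UMIs in 3138 Eµ-TCL1 node B cells, and 154 UMIs in 9137 against 12 UMIs in 9791 spleen B cells. Eµ-PRMT5 spleens had 72 UMIs in 4339 B cells, 63 of them in spleen 4 (4.33 CPM), where the other 4 spleens were at 0 to 1.14 CPM. In the node the log2 difference was 4.58 ± 0.92 (edgeR adjusted p = 0.462, DESeq2 adjusted p = 0.00634). Over 17 alternatives it lay between 4.01 and 5.01 with adjusted p from 0.00634 to 1.00. The difference of Eµ-PRMT5 and Eµ-TCL1 spleens was 3.15 ± 1.19 (edgeR adjusted p = 0.211), and without Eµ-PRMT5 spleen 4 Bcl2l14 did not pass the filter on low counts. Because a fitted fold change of so few UMIs depends on the added prior count, the UMIs themselves are the firmer statement.

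Shares of cells were set on equal depth by thinning each cell to 1000 UMIs, with T cells of the same libraries for comparison. A Bcl2l14 UMI was left in 22 of 5177 Eµ-PRMT5/TCL1 node B cells (0.425%) and in 0 of 8313 T cells, which allows a share of up to 0.0361%. Such limits are for cells with a UMI after thinning, pooled over the mice of a group, and cover counting error only, not the spread between mice. In Eµ-TCL1 nodes it was left in 0 of 3138 B cells (up to 0.0956%) and 0 of 5311 T cells (up to 0.0565%). In Eµ-PRMT5/TCL1 spleens the shares were 0.131% of B cells and 0.0847% of T cells, in Eµ-PRMT5 spleens 0.161% and 0.0119%, and in Eµ-TCL1 spleens 0.0204% and 0.116%. For Eµ-TCL1 spleens the T cell share was the higher one, with 6 T cells against 2 B cells. The shares of Eµ-PRMT5/TCL1 spleens rested on 12 B cells against 3 T cells. Before thinning, Eµ-TCL1 spleen 2 held 17 Bcl2l14 UMIs in 812 T cells and 4 in 5333 B cells. By CPM the gene was higher in T cells than in B cells in 7 of 13 spleens and lower in 6. Whether the UMIs in T cells are background was not tested. Single libraries weighed on the pooled shares: without Eµ-PRMT5/TCL1 node 4 a UMI was left in 9 of 3577 node B cells (0.252%), without Eµ-PRMT5/TCL1 spleen 3 in 5 of 7798 (0.0641%), and without Eµ-PRMT5 spleen 4 in 3 of 3516 (0.0853%). Other omissions raised a share, to 17 of 2389 (0.712%) without Eµ-PRMT5/TCL1 node 2 and to 9 of 4129 (0.218%) without Eµ-PRMT5/TCL1 spleen 1. Without thinning, 0.717 to 3.39% of B cells of the single Eµ-PRMT5/TCL1 nodes held a UMI, and 0 to 0.207% of those of the Eµ-TCL1 nodes. Median depth was 4288 to 16741 UMIs in B cells and 2790 to 9713 in T cells.

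Node and spleen of the same mouse were compared with the mouse as a block. In 3 Eµ-TCL1 mice edgeR called 0 of 10 genes against 0.00% of all genes, and DESeq2 0 of 10 against 0.142%. Before adjustment 3 of 10 were below 0.05 by edgeR, against 5.01% of all genes. Bcl2a1b was higher in node than spleen in 3 of 3 mice (158, 194 and 149 against 86.7, 90.01 and 80.0 CPM; 0.89 ± 0.34 log2 units, edgeR adjusted p = 0.937). Bcl2a1d (0.95 ± 0.41) and Bcl2l1 (0.68 ± 0.30) were also higher in 3 of 3 mice. The other 7 genes lay between −0.34 (Bcl2) and 0.43 (Bcl2l11). In the same nodes immediate early genes were positive in 9 of 10 (median 0.63) and cycling genes in 5 of 6 (median 0.60), with 0 called, and their part was not tested. In 4 Eµ-PRMT5/TCL1 mice edgeR called 0 of 10 genes against 0.00% and DESeq2 0 of 10 against 0.567%, none was below 0.05 before adjustment, and differences lay between −0.07 and 0.71. The difference between the genotypes in this node effect was −0.81 to 0.83 for the 10 genes, with 0 of 10 called against 0.00% by edgeR and 0.00% by DESeq2 and none below 0.05 before adjustment.

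Cell classes were compared within the spleens, with the library as a block. A T cell had at least 2 UMIs of Cd3d, Cd3e and Cd3g and, like myeloid cells, at most 1 of Cd79a and Cd79b. A myeloid cell had at least 3 UMIs of Tyrobp and Fcer1g and at least 3 of Lyz2, Csf1r, S100a8, S100a9 and Mpo. A plasma cell had at least 20 UMIs of Jchain and 5 of Xbp1, Sdc1 and Prdm1. Bcl2l14 was too low for the tests of classes. The markers of B cells summed to 0.674 to 27.5% of their B cell level in T cells (median 1.85%), 2.84 to 101% in myeloid cells (median 13.1%, a list that includes Cd74) and 86.1 to 289% in plasma cells (median 136%, a list that includes Ighm). Both the 27.5% and the 101% are of Eµ-PRMT5 spleen 4, whose B cells had the lowest marker sum. The next highest myeloid value was 76.8% in Eµ-PRMT5 spleen 5. The part of such transcripts in the values below was not tested.

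In T cells, BIM and BCL-XL transcripts were higher and Mcl1 lower than in B cells of the same spleens. Of 9 genes tested, 4 were called higher against 28.2% of all genes and 2 lower against 29.8%, shares that make the counts themselves no result about the family. Mcl1 was lower in T cells in 13 of 13 spleens, with a median of 96.3 CPM against 237 CPM in B cells (−1.27 ± 0.10, edgeR adjusted p = 2.83e-08). Bcl2l1 was higher in 13 of 13, at a median of 30.4 against 5.07 CPM (2.91 ± 0.36, edgeR adjusted p = 5.77e-06). Bcl2l11 was higher in 12 of 13, at 218 against 50.1 CPM (2.13 ± 0.37, adjusted p = 0.000182), and Eµ-PRMT5 spleen 4 was the exception with 49.7 against 184 CPM. Bax was higher in 12 of 13 (0.35 ± 0.08, adjusted p = 0.00118), Pmaip1 in 10 of 13 (0.73 ± 0.27, adjusted p = 0.0321, not called in 8 of 19 alternatives) and Bbc3 lower in 11 of 13 (−0.44 ± 0.13, adjusted p = 0.00840).

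Bcl2 did not pass between T and B cells (0.49 ± 0.39, edgeR adjusted p = 0.302). In T cells it was spread more widely than in B cells, from 1.66 CPM in the 52 T cells of Eµ-PRMT5 spleen 4 (1 UMI) over a median of 121 CPM to 593 CPM in Eµ-PRMT5 spleen 5, and it was higher than in B cells in 9 of 13 spleens. Bcl2a1b (0.46 ± 0.24) and Bcl2a1d (0.24 ± 0.36) did not pass either. Around the family, 4 of 10 other Bcl2 family genes were called higher in T cells and 3 lower, led by Bid, which links death receptors to BAX (−2.05 ± 0.14, adjusted p = 6.07e-09). Of 11 regulators 3 were higher and 5 lower, led by the NF-κB subunit Rel (−1.999 ± 0.11, adjusted p = 4.49e-10) and the stress factors Atf4 (−1.28) and Ddit3 (−1.18). Of 15 caspase and apoptosome genes 5 were higher and 5 lower, of 9 inhibitor of apoptosis genes 2 and 2, and of 10 immediate early genes 1 and 8.

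**Figure D3:**
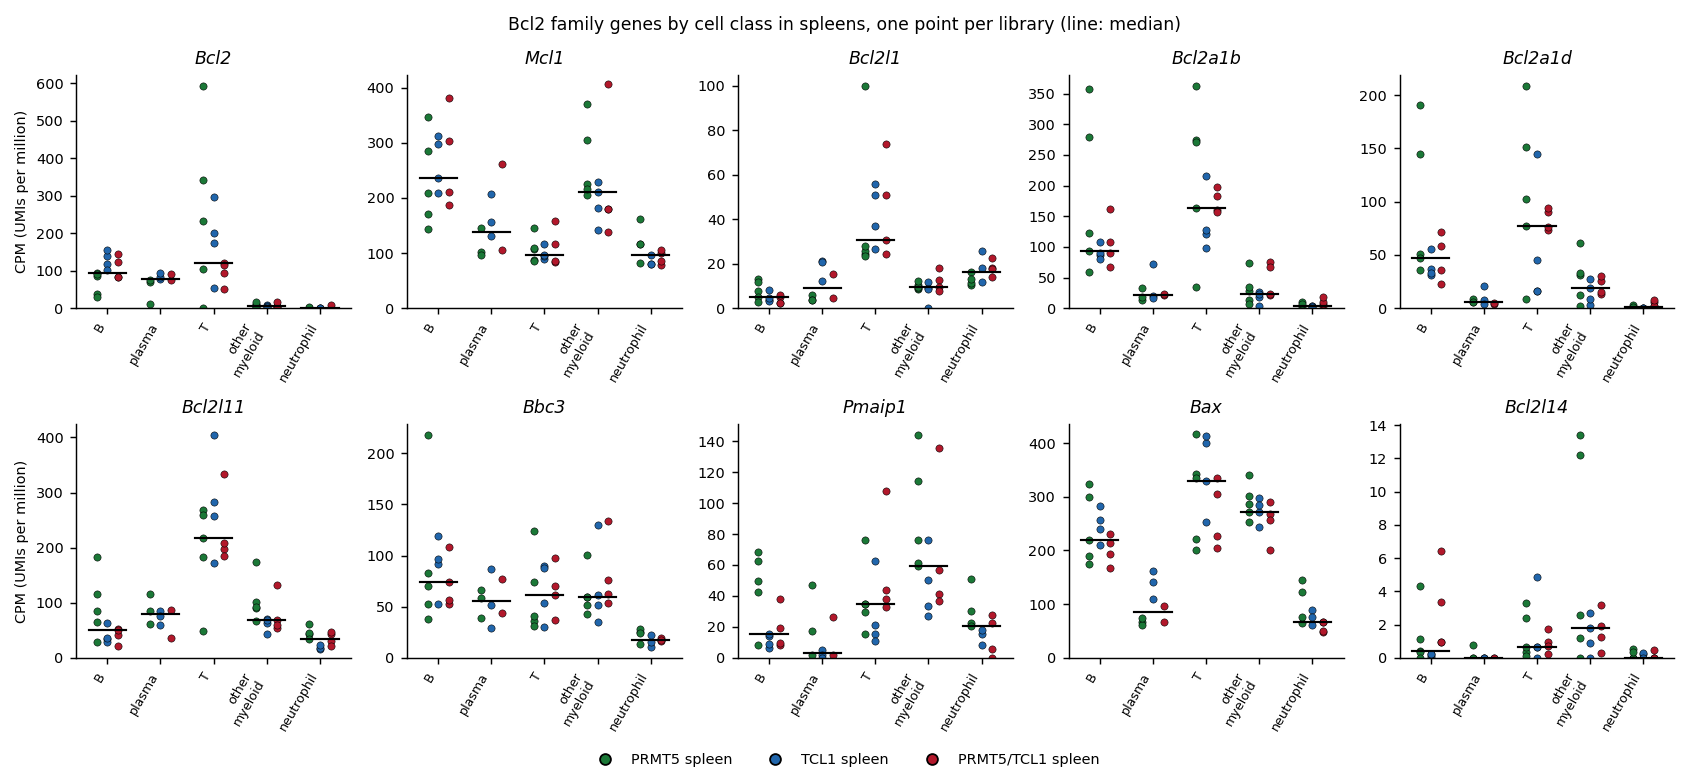
Levels of the 10 genes by cell class in spleens, in CPM, with B, plasma, T, other myeloid and neutrophil sums side by side. Points are libraries with at least 20 cells of the class, colored by genotype, and lines are medians. Bcl2 is close to 0 in both myeloid classes, Bcl2l1 and Bcl2l11 are highest in T cells, and Bcl2a1b and Bcl2a1d are low in plasma and myeloid cells.

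Myeloid cells carried little Bcl2. EdgeR called 2 of 9 genes higher than in B cells against 33.1% of all genes, and 4 lower against 34.5%. Bcl2 was lower in 13 of 13 spleens, with a median of 3.24 CPM against 92.7 CPM (−4.08 ± 0.23, edgeR adjusted p = 2.06e-10). Bcl2a1b was lower in 13 of 13 (15.8 against 92.6 CPM; −2.55 ± 0.38, adjusted p = 2.24e-05), Bcl2a1d in 12 of 13 (−2.28 ± 0.41) and Bbc3 in 12 of 13 (−0.47 ± 0.17). Bcl2l1 was higher in 11 of 13 (1.49 ± 0.28, adjusted p = 0.000176) and so was Pmaip1 (1.37 ± 0.33, adjusted p = 0.00167). Mcl1 was at a median of 157 against 237 CPM and lower in 12 of 13, with −0.28 ± 0.12 (adjusted p = 0.0537, called in 12 of 19 alternatives). Bcl2l11 (0.45 ± 0.20, adjusted p = 0.0569) and Bax (−0.02 ± 0.10) did not pass. With total-count scaling in place of trimmed means the median of all genes went from −0.04 to −0.29 and the share of higher calls from 49.0% to 35.6%. All 6 called genes kept their direction and were called under that scaling.

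Of the pathway lists in myeloid cells, counted on the scale of trimmed means, 7 of 10 other Bcl2 family genes and 9 of 15 caspase and apoptosome genes were called higher, with 0 and 2 lower. They were led by Apaf1, the scaffold of the apoptosome (1.40 ± 0.12, adjusted p = 2.01e-08), cytochrome c (Cycs, 1.08 ± 0.11) and the mitophagy receptor Bnip3 (2.87 ± 0.32). Bcl2a1a, the A1 copy nearly missing in B cells, was higher by 4.95 ± 0.71 (outside the rule for named genes and chosen after its value was seen). With at most 21 UMIs in any B cell sum, it passed the filter on low counts through the myeloid cells. Its value is thus a description and no support, and part of its sequence is shared with the other copies. Of 9 inhibitor of apoptosis genes 5 were higher and 1 lower, with Naip2 at 2.56 ± 0.23 and Cflar, a brake on death receptor signaling, at 1.12 ± 0.12. Of 11 regulators 1 was higher and 7 lower, with Myc at −3.85 ± 0.39. Of 10 immediate early genes 2 were higher and 4 lower. With total-count scaling 6 other Bcl2 family genes were higher and 1 lower, 7 caspase and apoptosome genes higher and 2 lower, 5 inhibitor of apoptosis genes higher and 2 lower, and 1 regulator higher and 9 lower, and the genes named here kept their direction and call. That scaling called 2619 of all 10376 genes higher and 4741 lower.

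Within the myeloid gate, neutrophils (at least 2% of UMIs from S100a8 and S100a9) were set against the other cells in 11 spleens. By edgeR 1 of 8 genes tested was called higher against 31.2% of all genes, and 6 were lower against 36.0%. The gene that was higher was Bcl2l1, in 11 of 11 spleens, at a median of 16.1 against 9.64 CPM (1.40 ± 0.15, edgeR adjusted p = 3.20e-07). Bax was lower in 11 of 11 (67.4 against 271 CPM; −1.11 ± 0.11, adjusted p = 1.38e-07), and so were Bbc3 (−0.98 ± 0.15), Bcl2a1d (−2.32 ± 0.33), Pmaip1 (−0.97 ± 0.20), Bcl2l11 (−0.53 ± 0.13) and Mcl1 (−0.36 ± 0.15, adjusted p = 0.0404, lost when any 1 of 7 libraries was left out). Bcl2a1b did not pass (−0.75 ± 0.34, adjusted p = 0.0644). Bcl2 did not pass the filter on low counts and was not tested (39 against 210 UMIs, lower by CPM in 11 of 11 spleens). Neutrophils held fewer UMIs, with a median of 8621 per cell against 14603. Total-count scaling moved the median of all genes from −0.05 to −0.76 and the share of higher calls from 46.4% to 15.5%, and under it Bcl2l1 stayed higher (0.69), the 6 others stayed lower and Bcl2a1b was called lower (−1.47, adjusted p = 0.00109).

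Around these genes, the tumor suppressor gene Trp53 was lower in neutrophils (−1.05 ± 0.12, adjusted p = 1.03e-06). Huwe1, a ubiquitin ligase that acts on MCL1, was also lower (−1.05 ± 0.14). On the trimmed scale counts were 2 higher and 2 lower of 7 other Bcl2 family genes, 2 and 6 of 14 caspase and apoptosome genes, 3 and 1 of 9 inhibitor of apoptosis genes, 2 and 5 of 11 regulators, and 2 and 4 of 8 immediate early genes, among them Jun (1.72 ± 0.20) and Ier2 (1.02 ± 0.10) on the higher side. With total-count scaling they were 0 and 5, 1 and 13, 0 and 6, 0 and 10, and 2 and 6, with Jun (1.00) and Ier2 (0.30) still called higher and Trp53 and Huwe1 lower. That scaling called 1048 of all 8216 genes higher and 5708 lower.

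Plasma cells held few A1 transcripts. They were compared with B cells in the 8 spleens that held at least 20 of them, and 2 of 9 genes were called higher against 20.5% of all genes and 3 lower against 21%. Bcl2a1d was lower in 8 of 8 spleens, at a median of 5.66 against 36.5 CPM (−2.04 ± 0.28, edgeR adjusted p = 5.86e-05), and Bcl2a1b in 8 of 8, at 20.8 against 91.2 CPM (−1.43 ± 0.33, adjusted p = 0.00632). Bax was lower in 8 of 8 (85.6 against 225 CPM; −0.47 ± 0.11, adjusted p = 0.00371). Bcl2l11 (1.51 ± 0.16, adjusted p = 2.79e-06) and Bcl2l1 (1.80 ± 0.28, adjusted p = 0.000112) were called higher, although by CPM they were higher in 5 and 6 of 8 spleens.

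The direction of several genes in plasma cells depended on the scale. By total counts the median of all genes was −0.76 in place of −0.07 and 11.2% in place of 49.4% of calls were higher. Mcl1 was lower in plasma cells by CPM in 8 of 8 spleens (137.8 against 267 CPM) and at −0.02 ± 0.18 on the trimmed scale, where total-count scaling called it at −0.69 (adjusted p = 0.00263). Bcl2 was lower by CPM in 8 of 8 (76.6 against 109 CPM) and at 0.22 ± 0.16, which total-count scaling turned to −0.47 ± 0.15 (adjusted p = 0.0113). Bbc3 (0.36 ± 0.23, and −0.33 with total-count scaling) and Pmaip1 (−0.14 ± 0.26) did not pass on the trimmed scale, and total-count scaling called Pmaip1 at −0.90 (adjusted p = 0.00491). Relative to the median of all genes on either scale, Bcl2 and Mcl1 were not below the other transcripts. Bcl2a1b, Bcl2a1d, Bax, Bcl2l1 and Bcl2l11 kept their direction and call on both scales.

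Between genotypes and tissues plasma cells are given as levels and were not tested. Bcl2 was at 11.6, 69.7 and 75.6 CPM in 3 Eµ-PRMT5 spleens, 77.1, 83.0 and 94.5 CPM in 3 Eµ-TCL1 spleens and 76.1 and 91.7 CPM in 2 Eµ-PRMT5/TCL1 spleens. In nodes it was at 160.4, 130.3 and 100.3 CPM (Eµ-TCL1) and 91.4 and 103 CPM (Eµ-PRMT5/TCL1). The lowest value was that of the 48 plasma cells of Eµ-PRMT5 spleen 1, whose B cells were low too. Bcl2l11 was at 116, 104 and 137 CPM in plasma cells of Eµ-TCL1 nodes and at 34.9 and 27.04 CPM in those of Eµ-PRMT5/TCL1 nodes, and Bcl2l1 at 44.4, 11.2 and 14.965 CPM against 2.77 and 3.86 CPM, with 5 and 3 UMIs in the last 2.

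Of the pathway lists in plasma cells, counted on the trimmed scale, 2 of 8 other Bcl2 family genes were higher and 2 lower, 4 and 2 of 15 caspase and apoptosome genes, 1 and 3 of 7 inhibitor of apoptosis genes, 4 and 4 of 11 regulators, and 3 and 3 of 10 immediate early genes. Bid was lower by 0.91 log2 units (−0.91 ± 0.13), Trp53 by 0.83 (−0.83 ± 0.12) and Birc3, an inhibitor of apoptosis induced by NF-κB, by 1.12 (−1.12 ± 0.14). Jun (1.86 ± 0.20, adjusted p = 7.51e-06), Cflar (1.21 ± 0.16) and the mitochondrial protease gene Htra2 (1.02 ± 0.16) were higher. With total-count scaling the counts, higher and lower, were 1 and 5, 0 and 10, 1 and 4, 0 and 7, and 1 and 3 in the same order of lists. That scaling called 796 of all 9680 genes higher and 6307 lower. Under it Htra2 lost its call (0.34, adjusted p = 0.0724), Jun (1.18) and Cflar (0.51) stayed higher, and Bid, Trp53 and Birc3 stayed lower.

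B cells in 2 states were compared with the remaining B cells of the same spleen. Stress B cells had at least 3 UMIs of Atf3 and Plk2, genes that are no findings here, and were present in 13 of 13 spleens (3074 cells against 20193). EdgeR called 4 of 9 genes higher against 22.2% of all genes and 1 lower against 27%. Pmaip1 was higher in 12 of 13 spleens, at a median of 37.8 against 11.4 CPM (1.35 ± 0.11, edgeR adjusted p = 8.18e-09), and Eµ-PRMT5 spleen 5 was the exception. Mcl1, whose protein NOXA binds, was higher in 13 of 13 (311 against 227.8 CPM; 0.42 ± 0.07, adjusted p = 2.15e-05). Bcl2a1b was higher in 11 of 13 (0.39 ± 0.12, adjusted p = 0.0150) and Bcl2a1d in 9 of 13 (0.20 ± 0.08, adjusted p = 0.0336, lost in 10 of 19 alternatives). Bcl2 was lower in 12 of 13 (78.1 against 105 CPM; −0.47 ± 0.07, adjusted p = 7.33e-06). Bcl2l1 (0.31 ± 0.16), Bbc3 (0.26 ± 0.11), Bcl2l11 (0.12 ± 0.11) and Bax (−0.09 ± 0.05, and 0.01 with total-count scaling) did not pass, though total-count scaling called Bbc3 (0.36, adjusted p = 0.0356). Without the library block edgeR called 0 of 9.

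Depth in stress B cells was a little higher, with a median of 9591 UMIs per cell against 8432. Total-count scaling raised the share of higher calls from 45.2% to 65.5%, and the 5 called genes kept their direction. All 10 immediate early genes were higher, a list that holds the gate gene Atf3, with Ier2 at 1.01 ± 0.09 (adjusted p = 9.91e-08), Junb at 1.08 ± 0.09 and Zfp36 at 1.27 ± 0.12. Of 11 regulators 4 were higher and 0 lower, among them Myc (1.89 ± 0.15) and Ddit3 (1.24 ± 0.11). Of 15 caspase and apoptosome genes 9 were lower and 0 higher, 1 of 7 other Bcl2 family genes was higher and 3 lower, and 2 of 9 inhibitor of apoptosis genes were higher and 1 lower. With total-count scaling 6 regulators were higher, 5 caspase and apoptosome genes lower, 1 other Bcl2 family gene higher and 1 lower, and 2 inhibitor of apoptosis genes higher and 0 lower. That scaling called 2795 of all 9470 genes higher and 1471 lower.

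**Figure D4:**
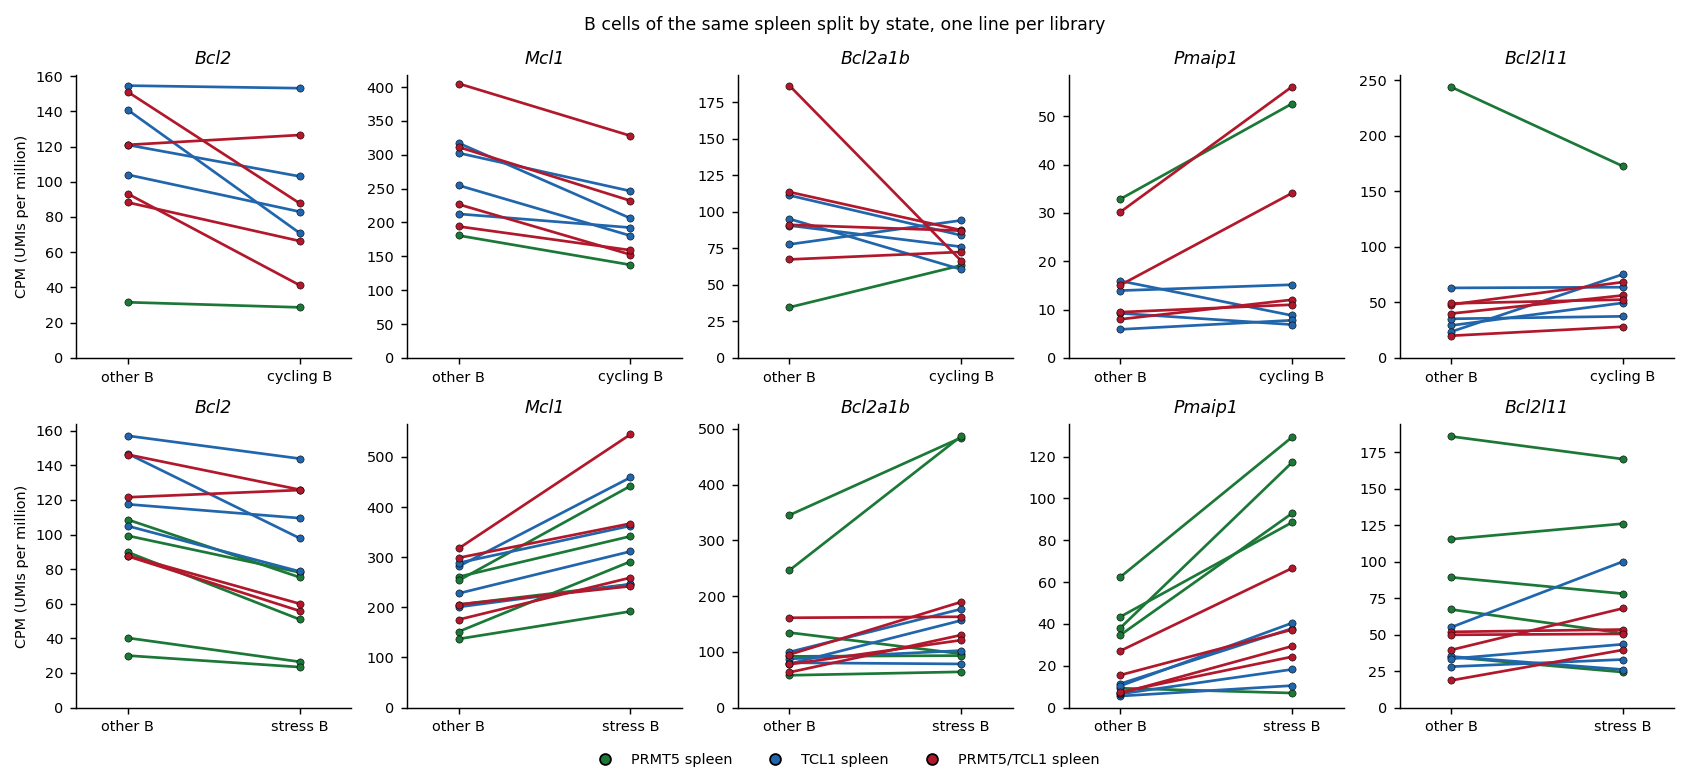
Levels in CPM of Bcl2, Mcl1, Bcl2a1b, Pmaip1 and Bcl2l11 in B cell states, with a line for each spleen from the other B cells to cycling B cells (upper panels, 9 spleens) and to stress B cells (lower panels, 13 spleens), colored by genotype. Lines of Pmaip1 and Mcl1 go up into stress B cells in 12 and 13 of 13 spleens, and lines of Mcl1 go down into cycling B cells in 9 of 9.

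Cycling B cells (at least 5 UMIs of Mki67, Top2a, Birc5, Ccna2, Cdk1 and Cenpa) were compared in the 9 spleens with at least 20 of them (1943 cells against 17808). None of 9 genes was called higher against 17.7% of all genes, and 2 were lower against 17.2%. Mcl1 was lower in 9 of 9 spleens, at a median of 192 against 255 CPM (−0.42 ± 0.07, edgeR adjusted p = 0.000212), and Bcl2 in 8 of 9, at 83.0 against 121 CPM (−0.43 ± 0.11, adjusted p = 0.00775). Eµ-PRMT5 spleen 4 gave 590 of the 1943 cycling cells, and without it Mcl1 (−0.41, adjusted p = 0.000242) and Bcl2 (−0.44, adjusted p = 0.0118) stayed lower while Bcl2l11 was called higher (0.46, adjusted p = 0.0138). Without the library block edgeR called 0 of 9. Pmaip1 (0.36 ± 0.16, adjusted p = 0.0878), Bcl2l11 (0.33 ± 0.17, 0.152) and Bbc3 (−0.16 ± 0.07, 0.0947) did not pass, and Bcl2l1, Bcl2a1b, Bcl2a1d and Bax lay between −0.21 (Bcl2a1b) and 0.17 (Bcl2l1). Cycling cells held more UMIs, with a median of 15758 per cell against 8343, and the part of depth was not tested. Of 15 caspase and apoptosome genes 8 were higher and 1 lower. Counts were 1 higher and 1 lower of 7 other Bcl2 family genes, 1 and 2 of 9 inhibitor of apoptosis genes, 0 and 1 of 11 regulators, and 0 and 4 of 10 immediate early genes. The 1 higher inhibitor of apoptosis gene is the gate gene Birc5, so that its call was fixed by the gate.

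T cells, which the B cell promoter and enhancer are not meant to drive, were compared between genotypes in the same way. In spleen edgeR called 0 of 10 genes against 0.0357% of all genes for Eµ-PRMT5 and Eµ-TCL1, 0 of 10 against 0.00% for Eµ-PRMT5/TCL1 and Eµ-TCL1, and 0 of 10 against 0.00% for Eµ-PRMT5/TCL1 and Eµ-PRMT5. Even before adjustment none of the 10 was below 0.05 in any of the 3. DESeq2 called 0 of 10 in each, against 0.224%, 0.0269% and 0.0627%. Bcl2 in spleen T cells was at 104, 341, 232, 1.66 and 593 CPM (Eµ-PRMT5), 53.3, 175, 295 and 201 CPM (Eµ-TCL1) and 51.3, 93.6, 121 and 115 CPM (Eµ-PRMT5/TCL1), so that its range in Eµ-PRMT5 spleens covered both other groups. Differences of the 10 genes ran from −0.54 (Bcl2l14) to 0.93 (Bcl2a1d) for Eµ-PRMT5 minus Eµ-TCL1, from −1.05 (Bcl2) to 0.81 (Pmaip1) for Eµ-PRMT5/TCL1 minus Eµ-TCL1, and from −1.61 (Bcl2) to 0.44 (Pmaip1) for Eµ-PRMT5/TCL1 minus Eµ-PRMT5. Total-count scaling moved the median of all genes to 0.12 and 0.13 in the 2 comparisons with Eµ-PRMT5/TCL1. Jun was the 1 pathway gene called, at 2.12 ± 0.28 for Eµ-PRMT5 minus Eµ-TCL1 (adjusted p = 0.0173), a call lost with total-count scaling (2.13, adjusted p = 0.0740), and all 10 immediate early genes were positive there (median 1.70).

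In lymph node T cells edgeR called 0 of 9 genes against 0.00% of all genes, 4 of 9 were below 0.05 before adjustment against 14.1% of all genes, and DESeq2 called 2 of 9 against 1.21%. Bcl2 was at 104, 117, 132 and 128 CPM in Eµ-PRMT5/TCL1 nodes and at 291, 235 and 226 CPM in Eµ-TCL1 nodes, with no overlap (−0.91 ± 0.21, edgeR adjusted p = 0.173, DESeq2 adjusted p = 0.0184, range over alternatives 0.0184 to 0.625). Bcl2a1d was at 150.2, 46.9, 41.8 and 52.8 against 16.6, 18.3 and 35.3 CPM, again with no overlap (1.53 ± 0.40, edgeR adjusted p = 0.199, DESeq2 adjusted p = 0.0175, range 0.0175 to 0.695). Without Eµ-PRMT5/TCL1 node 1, a sum of 66 T cells, the edgeR values were −0.78 (adjusted p = 0.0727) and 1.26 (0.0897).

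In node T cells the groups did not overlap for 4 of 9 genes, against 9.83% of all genes, and the other 2 were Mcl1 (−0.29 ± 0.24) and Bbc3 (−0.41 ± 0.17), both lower in Eµ-PRMT5/TCL1. Pmaip1 (0.66 ± 0.27), Bcl2a1b (0.72 ± 0.34) and Bax (−0.47 ± 0.21) overlapped, as did Bcl2l1 (0.63 ± 0.54) and Bcl2l11 (−0.05 ± 0.41). Total-count scaling moved the median of all genes from −0.01 to −0.16, and Bcl2 was then at −1.05 and Bcl2a1d at 1.52. Other measures differed between these nodes too, and their part was not tested: Mki67 was at 31.1, 14.997, 19.9 and 30.3 CPM in T cells of Eµ-PRMT5/TCL1 nodes and 22.1, 9.02 and 5.19 CPM in Eµ-TCL1 nodes, all 6 cycling genes were positive (median 1.40, 0 called), and Cd8a was at 383, 136, 167 and 162 against 456, 413 and 230.3 CPM.

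**Figure D5:**
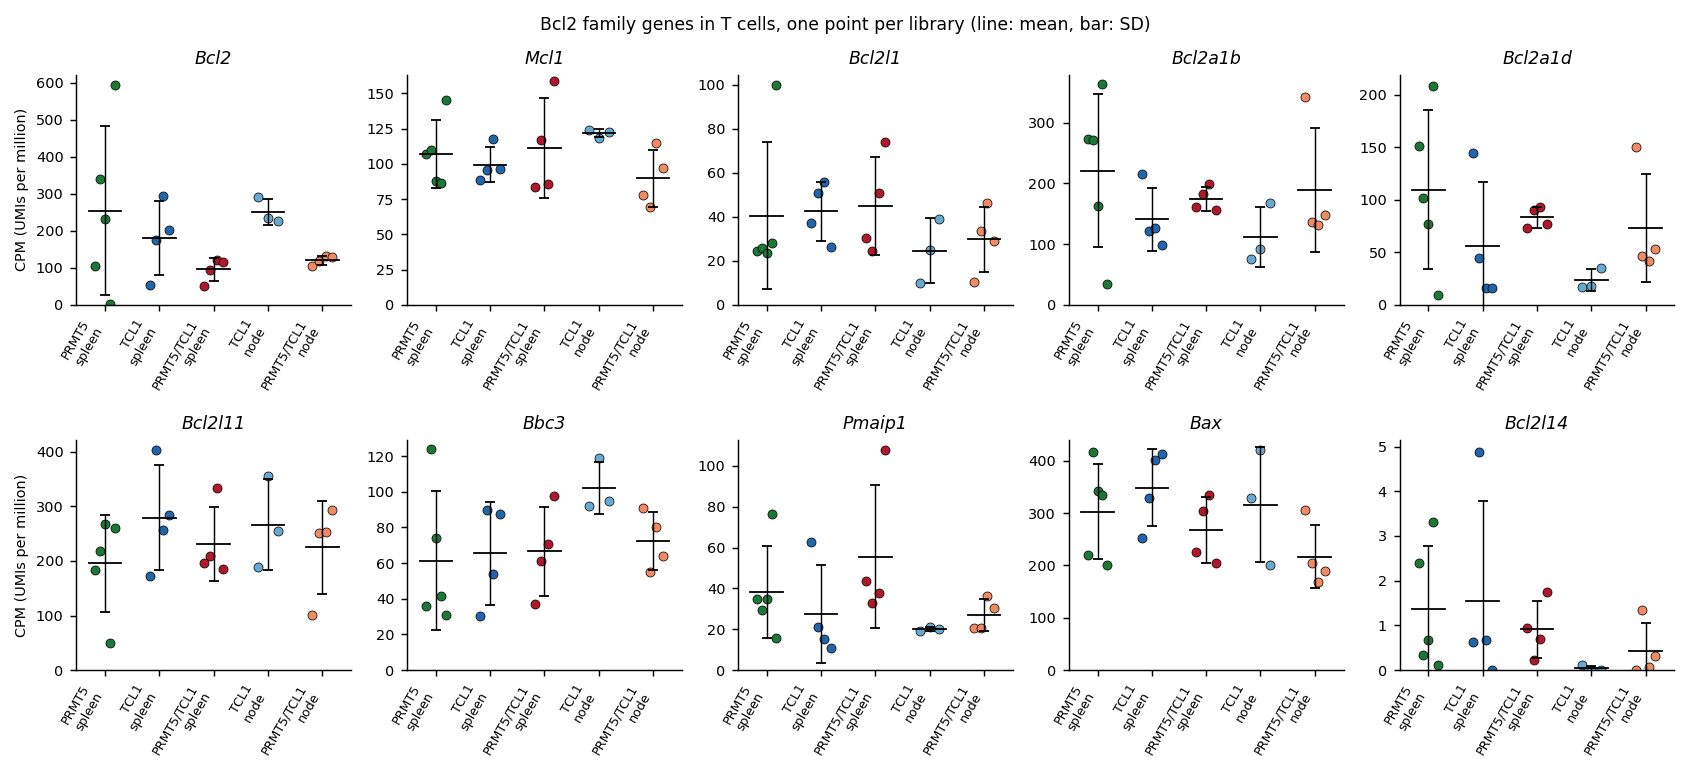
Levels of the 10 genes in gated T cells, in CPM on a linear axis from 0, by group. Points are libraries, lines are means and bars are SD. In lymph nodes Bcl2 of the 4 Eµ-PRMT5/TCL1 libraries (104 to 132 CPM) lies below that of the 3 Eµ-TCL1 libraries (226 to 291 CPM), while in spleens Eµ-PRMT5 values run from 1.66 to 593 CPM.

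In spleen myeloid cells edgeR called 0 of 9 genes against 0.00% of all genes for Eµ-PRMT5 and Eµ-TCL1, where 2 of 9 were below 0.05 before adjustment against 3.34% of all genes. These were Bcl2l11 (0.79 ± 0.26) and Pmaip1 (0.97 ± 0.40), each with an edgeR adjusted p of 0.999, and the other 7 lay between −0.24 (Bcl2l1) and 1.01 (Bcl2a1d). For Eµ-PRMT5/TCL1 and Eµ-TCL1, 0 of 9 were called against 0.00% and 1 was below 0.05 before adjustment against 1.82% of all genes, Bcl2a1b (1.42 ± 0.64, adjusted p = 1.00), with the other 8 between −0.11 (Bcl2l1) and 1.09 (Bcl2a1d). Immediate early genes were positive in 10 of 10 in both comparisons (medians 1.61 and 0.97, 0 called), and their part was not tested. For Eµ-PRMT5/TCL1 and Eµ-PRMT5, 0 of 9 were called against 0.00% and none was below 0.05 before adjustment, with differences from −0.49 (Pmaip1) to 0.80 (Bcl2a1b). DESeq2 called 0 of 9 in each, against 0.0108%, 0.00% and 0.00%. Bcl2l11 was at 76.4, 103, 43.7, 83.5 and 91.7 CPM in Eµ-PRMT5 and at 41.8, 61.3, 31.4 and 52.2 CPM in Eµ-TCL1 myeloid cells, and the groups overlapped through Eµ-PRMT5 spleen 3. In lymph nodes 1 Eµ-TCL1 and 3 Eµ-PRMT5/TCL1 libraries had at least 20 myeloid cells, so the fit takes the lone library to vary like the others and its calls say little about the genotypes. EdgeR called 0 of 7 genes there against 0.0310% of all genes, none below 0.05 before adjustment, with differences from −0.81 (Bcl2l1) to 1.10 (Bcl2a1b), and DESeq2 called 0 of the 5 for which it returned an adjusted value, against 0.602%.

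Genes whose levels followed those of Bcl2, Mcl1 and Bcl2a1b most closely over the 20 B cell sums were looked up among 5627 genes with at least 20 CPM on average. By Spearman's rho these were Rida (0.83), Ngly1 (0.83) and Cnp (0.80) for Bcl2, Inpp4b (0.88), Sh3bp5 (0.84) and mt-Nd4l (0.84) for Mcl1, and Bcl2a1d (0.93), Osbpl8 (0.83) and Jarid2 (0.80) for Bcl2a1b. The points share libraries, depth and mice, and for the 2 A1 copies also sequence, so these values describe the sums only.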

How the data were processed

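Single-cell libraries (10x Genomics 3′ chemistry) of 20 samples were used. Per the labels the authors made UMI counts with Cell Ranger 2.0.1 and deposited them as unfiltered matrices of raw counts per gene and barcode. The matrix headers carry another software version than the labels. Barcodes with at least 0.1 of the 99th percentile of the 3000 largest, 200 genes and no more than 10% of UMIs from mitochondrial genes were taken as cells, and doublets were removed with Scrublet (scanpy 1.11.5). Counts were summed per library and gated class with at least 20 cells, and each sum was treated as 1 sample. EdgeR 4.0.16 (R 4.3.3; quasi-likelihood, trimmed-mean scaling, filterByExpr) was fitted across all genes, with BH adjustment and 0.05 as threshold; every adjusted p is edgeR's unless DESeq2 1.42.0 is named. The SE of an edgeR difference was taken back from its test, as the size of the difference over the square root of the F statistic. It is least certain for genes with few UMIs. Classes, states and tissues were fitted with the library or mouse as a block. Replicate numbers did not pair genotypes (correlations of deviations −0.144 to 0.225). Node and spleen of 1 mouse, paired by the titles, gave 0.109 to 0.627, a range that overlaps the first.

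The members and lists were chosen with earlier results of these data known. The rule for named genes takes all 10 members in every comparison (by name, or by range and count where they passed no test), in each comparison up to 6 called genes of the lists by adjusted p (a few are not reported here), and for Bcl2, Mcl1 and Bcl2a1b the 3 genes with the highest Spearman's rho. Members that did not pass the filter on low counts in a comparison were not tested there. A count of 0 was read as up to 3 UMIs, which covers counting error only. No matrix columns of other samples were present (0). Scripts were tested on simulated data.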

Additional observations from a re-analysis of the deposited data

Results flagged for a closer look

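Groups of at least 4 libraries, found in B, T and spleen myeloid cells, were screened gene by gene. A highest or lowest value was flagged if its gap to its nearest neighbor, relative to the range, exceeded Dixon's 95% critical value for the group size. Plasma cells, Eµ-TCL1 nodes and myeloid cells of nodes had fewer libraries per group and were not screened. Chance flags about 1 in 20 groups, and 15 of 110 groups had such a library.

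In B cells these were Mcl1 in Eµ-PRMT5/TCL1 node 1 (275 CPM against 214 to 222 CPM in the other nodes of the group), Bbc3 in Eµ-PRMT5 spleen 2 (218 against 37.6 to 83.4 CPM, in 273 cells) and Bcl2l14 in Eµ-PRMT5 spleen 4 (4.33 against 0 to 1.14 CPM, 63 UMIs).

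In T cells they were Bcl2l1 in Eµ-PRMT5 spleen 5 (99.97 against 23.4 to 28.2 CPM), Bcl2a1b and Bcl2a1d in the 66 T cells of Eµ-PRMT5/TCL1 node 1 (342 against 131 to 147 CPM, and 150.2 against 41.8 to 52.8 CPM), and Bcl2l11 in Eµ-PRMT5/TCL1 spleen 3 (333 against 186 to 209 CPM). Pmaip1 stood apart in Eµ-PRMT5/TCL1 spleen 4 (107.6 against 33.0 to 43.7 CPM) and Bcl2l14 in Eµ-TCL1 spleen 2 (4.87 against 0 to 0.672 CPM, 17 UMIs).

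In myeloid cells 4 of the 6 values came from the 37 cells of Eµ-PRMT5 spleen 5: Bcl2 (15.3 against 2.25 to 4.68 CPM, 5 UMIs), Bcl2a1b (73.4 against 7.18 to 14.1 CPM), Bcl2a1d (61.1 against 1.66 to 15.6 CPM) and Pmaip1 (144 against 35.6 to 64.0 CPM). The other 2 came from Eµ-PRMT5/TCL1 spleen 4, Mcl1 (318 against 125 to 157 CPM) and Bcl2l11 (109 against 45.3 to 55.8 CPM).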

How the results depend on the processing

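The number of the 10 genes called was recomputed in 21 comparisons under 368 alternatives and was within 1.5 times the reported count in 360 of them. DESeq2 called 2 genes for Eµ-PRMT5 and Eµ-TCL1 spleen B cells, 1 for node B cells and 2 for node T cells, where edgeR called 0. Total-count scaling, added after the data were seen together with a B cell gate that allows Cd3g, called 8 genes between plasma and B cells in place of 5. It called 7103 of all 9680 genes there, where the reported fit called 4022, so that the count of 8 is no result about the family. Without the filter on low counts 3 genes in place of 5 were called between stress and other B cells. Fits with no replicate block called 0 genes for cycling and 0 for stress B cells in place of 2 and 5. Fits with the replicate block changed no call between genotypes: in spleen B cells Bcl2 was at −1.25 (edgeR adjusted p = 0.127) and Pmaip1 at 2.25 (0.0501) with the replicate block. Leaving out 1 library at a time gave 0 to 1 genes for Eµ-PRMT5 and Eµ-TCL1 spleen B cells (1 without Eµ-PRMT5 spleen 5), 5 to 6 for T and B cells, 5 to 8 for myeloid and B cells, 5 in every case for plasma and B cells, 5 to 8 for neutrophils, 2 to 3 for cycling B cells, 4 to 6 for stress B cells, and 0 elsewhere. Over 67 single-gene results (those called in the reported fit or an alternative, below 0.05 before adjustment, or with groups that did not overlap), 1082 alternatives kept direction and call, 36 lost and 39 gained the call, and 7 turned the direction. All 7 of these concern plasma and B cells. Over the 129 other results of the 10 genes, 143 of 2285 alternatives turned the sign. Bcl2 turned to −0.47 with total-count scaling, and Pmaip1 (−0.14) to 0.18 with no replicate block. With 1 library left out Mcl1 (−0.02) ranged from −0.13 to 0.13, turning positive when Eµ-PRMT5 spleen 5 or replicate 1 of either other genotype was left out, and Pmaip1 from −0.35 to 0.028, turning positive without replicate 1 of Eµ-TCL1 or of Eµ-PRMT5/TCL1. The cause was not tested. The replicate block in myeloid node cells, and leaving out the only Eµ-TCL1 node library there, gave no value.

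Depth limits Bcl2l14, and Bcl2l1 in B cells (4 to 175 UMIs per library), and the small sums (66 T cells in Eµ-PRMT5/TCL1 node 1, 52 in Eµ-PRMT5 spleen 4, 37 myeloid cells in Eµ-PRMT5 spleen 5) carry the largest counting error. The labels give no batch, so a batch and a genotype cannot be told apart.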
